A study of Arabidopsis thaliana with 4 samples.

Results

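AGL42, AGL19, AGL24 and AGL18 are 4 AGAMOUS-like genes of Arabidopsis thaliana that encode MADS-box transcription factors tied to flowering time. They were chosen by name and probe set, with earlier results of these data known. They are 4 of the 13287 genes that the annotation pairs with a probe set of their own. Transcript levels were measured on oligonucleotide arrays in dissected shoot apices, the growing tip with its meristem and youngest organs, of wild-type Col-0 plants. The first group, SD30, was kept in short days for 30 days, which holds Col-0 plants in the vegetative phase. The second group, SD30_LD7, had 30 days in short days and then 7 long days, the day length that promotes flowering, so the shifted plants were also 7 days older. Each group had 2 samples on 1 array each, and the labels do not tell whether they are separate plantings, so the spread behind each p-value may be technical only.

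MADS-box proteins bind DNA as dimers and larger complexes, and the shoot apex uses different sets of them as it passes from making leaves to making flowers. AGL42 and AGL19 belong to the same clade as SOC1, the MADS-box gene that integrates day length, gibberellin and cold signals at the apex. AGL24 is closest to the floral repressor SVP but itself promotes flowering together with SOC1, and AGL18 is closest to AGL15, with which it acts redundantly to delay flowering. The day length signal reaches the apex as FT protein, which is made in leaves and acts at the apex with the bZIP factor FD.

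Of the 4 genes, AGL42 and AGL19 passed the test. AGL42 rose about 3-fold and AGL19 fell to within the dimmest 20 percent of all values, so the 2 genes of the SOC1 clade changed in opposite directions. AGL24 differed by less than the spread between its short-day arrays. AGL18 was lower on both shifted arrays but did not pass the test. Called genes were thus 2 of 4, where 15.0 percent of all probe sets tested were called, 6.80 percent as higher and 8.20 percent as lower after the shift. The 4 genes were chosen with earlier results of these data known, so setting these shares side by side is not a test. Groups whose arrays did not overlap were found for 3 of the 4 genes and for 54.5 percent of all probe sets tested, so a lack of overlap alone says little with 2 arrays a group.

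AGL42 (AT5G62165), also named FOREVER YOUNG FLOWER, promotes flowering at the apex and in axillary meristems and later delays the senescence of floral organs. Its intensity was 140.3 and 163.3 on the short-day arrays and 394.5 and 525 on the shifted arrays. Both shifted arrays lay far above both short-day arrays, and the groups did not overlap. The means were 152 ± 16.3 and 460 ± 92.3 (SD, n = 2 per group), and each shifted array was 2.42 to 3.74 times as bright as each short-day array. Within a group the brighter array exceeded the dimmer one by 1.16 times in short days and 1.33 times after the shift. On the log2 scale the difference was 1.59 ± 0.18 (SE), with a 95% interval of 1.19 to 1.99 and a limma adjusted p of 7.7e-05. Of the 15922 probe sets tested, 122 had a higher difference than AGL42. The call was lost when the filter on dim probe sets was left out (adjusted p = 0.12), with the same difference.

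AGL19 (AT4G22950) is an activator of flowering that is held silent by Polycomb group proteins and is induced by prolonged cold, in a branch of the vernalization pathway apart from FLC. On the short-day arrays it had intensities of 103.7 and 145, and on the shifted arrays 23.1 and 12.5. The short-day arrays were both clearly above the floor of 23.5 set on low intensities, which is the 20th percentile of all values, and the shifted arrays were both below it. The means were 124 ± 29.2 and 17.8 ± 7.50 (SD, n = 2 per group). Both shifted arrays lay below the floor, so the fold computed from the group means can only understate the fall on these arrays. That fold, of the short-day mean of log2 values against the floor, was 5.22. It is an estimate from 2 short-day arrays and not a limit on the true fall. Single arrays differed by 4.49 to 11.6 times without the floor, and with SD30 replicate 2 left out the log2 difference was -2.14. The log2 difference with the floor in place was -2.38 ± 0.33 (SE), with a 95% interval of -3.11 to -1.65 and a limma adjusted p of 3.9e-04. Of the 15922 probe sets tested, 107 had a lower one. Both shifted arrays take the same value at the floor, so their own spread does not enter this SE. With the floor at the 5th percentile the difference was -2.85 ± 0.41 (SE). With the floor at the 40th percentile, an intensity of 101.8, even the short-day arrays were close to the floor and the difference became -0.27 (adjusted p = 0.38). The call was also lost with no filter on dim probe sets (adjusted p = 0.088).

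AGL24 (AT4G24540) promotes flowering in a dose-dependent way, and its protein pairs with that of SOC1. Intensities were 899 and 992.6 in SD30 and 977.8 and 974.7 in SD30_LD7. Both shifted values lay between the 2 short-day values, so the groups overlapped completely. The means were 946 ± 66.2 and 976 ± 2.19 (SD, n = 2 per group). The log2 difference was 0.05 ± 0.11 (SE, limma adjusted p = 0.84), and its 95% interval of -0.19 to 0.28 corresponds to 0.878 to 1.22 times the short-day level. A change of AGL24 within that interval was not detectable with 2 arrays a group. The sign of the difference turned when SD30 replicate 1 was left out (-0.02, adjusted p = 0.93).

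AGL18 (AT3G57390) delays flowering in seedlings and is also expressed in embryos and in pollen. Its intensity was 262.6 and 209.2 on the short-day arrays and 186.5 and 139.1 on the shifted arrays. Both shifted arrays were dimmer than both short-day arrays, though the gap between the nearest pair was small. That nearest pair differed by 1.12 times, less than the 1.26 times between the short-day arrays or the 1.34 times between the shifted arrays. The means were 236 ± 37.8 and 163 ± 33.5 (SD, n = 2 per group). The log2 difference of -0.54 ± 0.21 (SE) had a 95% interval of -0.99 to -0.09 and an unadjusted p of 0.023 in limma, but did not pass after adjustment (adjusted p = 0.11). It had the same sign without any 1 array, from -0.75 to -0.33, with adjusted p of 0.094 to 0.49.

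**Figure D1:**
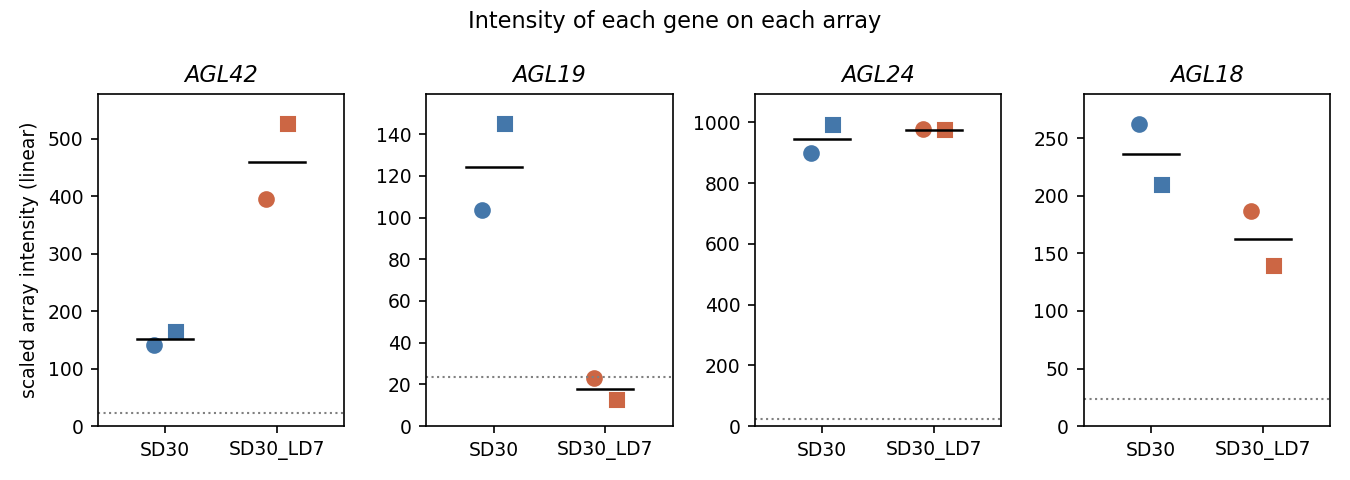
Scaled array intensity (linear axis from 0, own scale in each panel) of AGL42, AGL19, AGL24 and AGL18 on the 2 short-day arrays (SD30, blue) and the 2 shifted arrays (SD30_LD7, orange), with circles for replicate 1, squares for replicate 2, black lines for group means and a dotted line for the floor of 23.5. AGL42 is higher on both shifted arrays, AGL19 drops below the floor on both, AGL24 overlaps and AGL18 is lower with a narrow gap.

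Set among all probe sets, AGL42 and AGL19 lay in opposite tails of the distribution of differences. The median difference over all probe sets tested was -0.002. Of the probe sets tested, 99.2 percent had a lower difference than AGL42 and 0.672 percent had a lower one than AGL19. For AGL18 that share was 9.69 percent, and for AGL24 it was 57.6 percent. A p-value smaller than that of AGL18 was found for 20.8 percent of the probe sets tested.

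**Figure D2:**
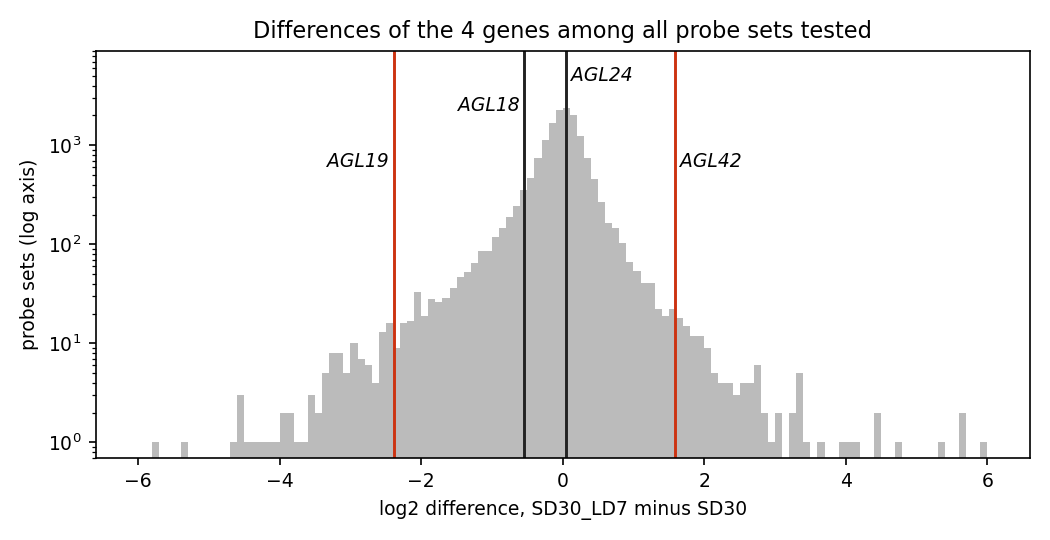
Number of probe sets (log axis) by log2 difference, SD30_LD7 minus SD30, for the 15922 probe sets tested, with red lines at the called genes and black lines at the others. AGL42 at 1.59 and AGL19 at -2.38 stand in the tails, AGL18 at -0.54 on the lower flank and AGL24 at 0.05 near the centre.

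The gene table lists 17 RefSeq transcripts for AGL42, 3 for AGL19, 1 for AGL24 and 3 for AGL18. Each gene had 1 probe set, and the sources used here do not say which transcripts it matches, so the values do not tell a change in level from a change between transcripts. In whole apices, fewer cells expressing a gene and less RNA per cell cannot be told apart.

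The 4 profiles were also unlike each other when each was centred on its own mean over the 4 arrays. The root mean square distance on the log2 scale was greatest between AGL42 and AGL19, at 1.99, and smallest between AGL24 and AGL18, at 0.369. Among 8809 other probe sets tested that are paired with 1 gene, the 3 profiles nearest to each of the 4 genes were found by the same measure over the 4 arrays. Nearest to AGL42 were AT4G14695 at a distance of 0.104, AT2G34810, a gene of the berberine bridge enzyme family, at 0.115, and AT5G64870, a flotillin-like gene, at 0.124. AT2G34810 went from 111.7 and 103.8 to 276.9 and 370. Nearest to AGL19 were AT5G14940 at 0.0635, SFP1, a sugar transporter gene, at 0.0865, and AT5G50120 at 0.105. SFP1 went from 133.7 and 165.3 to 26.3 and 29.4. Unlike AGL19, it stayed above the floor on all 4 arrays. All distances were taken with the floor in place, so those of AGL19 do not use how far its shifted arrays lay below it.

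Flat and slightly falling profiles were far more common than strongly rising or falling ones. Within a distance of 0.2 there were 25 probe sets around AGL42 and 15 around AGL19, against 457 around AGL18 and 5561 around AGL24. Nearest to AGL24 were AT4G22840 at 0.00363, NCLPP7, a Clp protease subunit gene, at 0.00585, and AT1G16020 at 0.00688. Nearest to AGL18 were AT5G24620 at 0.0241, AT5G42680 at 0.0416 and AT5G20550 at 0.055. With 4 arrays, such likeness describes these arrays only.

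Of the 38 MADS-box genes in lists of 9 clade groups, the annotation names 9, and 5 of these were bright enough to test. These 5 were the 4 genes above and AGL16. Their median log2 difference was -0.37, against -0.002 over all probe sets tested. AGL16 of the AGL17 clade, a gene of flowering time and stomatal development, had 274.9 and 261.2 in SD30 and 210.4 and 205.1 in SD30_LD7. Both shifted arrays were below both short-day arrays, with a difference of -0.37 ± 0.16 (SE) that did not pass (limma adjusted p = 0.17). The other genes of the SOC1 clade that the annotation names are AGL71 and AGL72, neighbours in the genome that act in flowering beside AGL42. AGL71 had 1.4 and 6.1 in SD30 and 29.5 and 33.3 in SD30_LD7, and AGL72 had 20.7 and 32.9 against 11.8 and 26.1. Both were too dim to test. So was AGL21, listed in the same clade group as AGL16, at 3.9 and 22.1 in SD30 and 3.7 and 11.3 in SD30_LD7. SOC1, AGL14, SVP, AGL15 and the FLC, SEPALLATA, AGAMOUS, APETALA3 and PISTILLATA clades were not analysed here, nor were AP1, CAL and FUL.

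Counting every gene with a numbered AGAMOUS-like symbol or synonym, the annotation names 42 genes with 44 probe sets, of which 12 genes were tested. The 38 genes beside the first 4 include many known from gametophytes, pollen and endosperm, and 32 of their 40 probe sets were too dim to test. On all 4 arrays 15 of the 40 lay at the floor. Of the 8 tested, 1 was called, a share near the 15.0 percent of all probe sets tested. This was AT1G30260, which fell from 121.5 and 81.2 to 34.2 and 29.6 (log2 difference -1.64 ± 0.34, SE, limma adjusted p = 0.0057). Its call was lost without SD30 replicate 1 (adjusted p = 0.071), and raising the floor to the 40th percentile left a difference of -0.13. The gene table gives AT1G30260 the synonym AGL79, which is also the symbol of AT3G30260, so its place in the family is uncertain. The other 7 tested had differences from -0.37 to 0.45 and did not pass. AGL30 and AGL65, which act in pollen, had 0.45 ± 0.30 and -0.27 ± 0.27 (SE), and AGL61, AGL62 and AGL80, which act in the female gametophyte and endosperm, had -0.33 ± 0.40, 0.22 ± 0.37 and -0.04 ± 0.33.

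**Figure D3:**
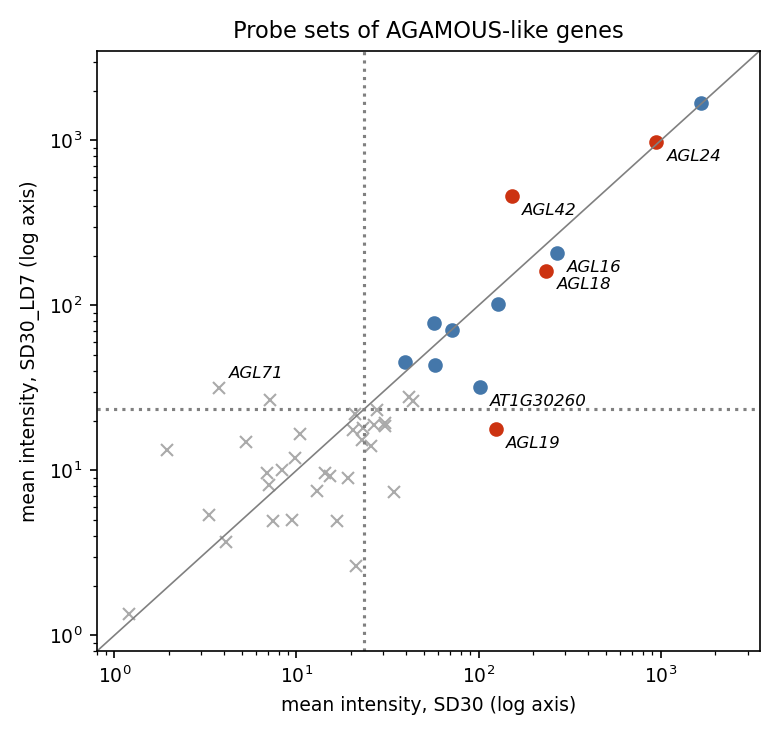
Mean intensity in short days against mean intensity after the shift (both log axes, n = 2 arrays each) for the 44 probe sets of numbered AGAMOUS-like genes, with the 4 genes in red, other tested probe sets in blue, untested ones as grey crosses, the floor of 23.5 as dotted lines and equality as the diagonal. AGL42 lies above the diagonal, AGL19 and AT1G30260 below it, and 22 of the 44 probe sets have means below the floor in both groups.

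Among 35 genes in a chosen list of flowering pathway genes, the annotation names 9 and 8 were tested, with 3 called higher, 3 called lower and 2 not called, where 15.0 percent of all probe sets tested were called (6.80 percent higher, 8.20 percent lower). Their median log2 difference was 0.56, against -0.002 over all probe sets tested. This list too was chosen with earlier results of these data known, so neither comparison is a test. FD, whose protein carries the FT signal to its targets at the apex, had 234.9 and 207.5 in SD30 and 414.8 and 512.3 in SD30_LD7. Both shifted arrays were higher, with a difference of 1.06 ± 0.16 (SE), the same direction as AGL42. The floral genes UFO (2.21 ± 0.32) and SPT (1.17 ± 0.17) rose as well, UFO by 0.90 and still called with the floor raised to the 40th percentile. PUCHI (0.88 ± 0.34) did not pass, though it did with quantile normalization (1.08, limma adjusted p = 0.046). On the other side, SMZ, an AP2-like repressor of flowering, had 126.9 and 155.1 in SD30 and 50.9 and 57.6 in SD30_LD7. That difference of -1.37 ± 0.26 (SE) passed, but was lost without SD30 replicate 2 (limma adjusted p = 0.061) and after raising the floor to the 40th percentile (0.071). SNZ, its close relative, was too dim to test, at 52.1 and 25.7 against 27.1 and 4.1. GI, a clock-controlled gene of the day length pathway, had -1.24 ± 0.15 (SE).

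Genes of the autonomous pathway, which promotes flowering by keeping FLC low, were represented by LD and FY. LD, a homeodomain protein gene, had 876.1 and 852.9 in SD30 and 673.1 and 653 in SD30_LD7. It fell by 0.38 ± 0.11 on the log2 scale (limma adjusted p = 0.034). The call of LD was lost without any 1 of the 4 arrays (adjusted p of 0.16 and 0.13 when SD30 replicate 1 or 2 was left out, and of 0.12 and 0.17 when SD30_LD7 replicate 1 or 2 was), after centring arrays on their medians (0.070) and without an intensity trend (0.12). FY, an RNA 3' end processing factor gene, had 462.1 and 473.6 against 519.6 and 584.7, a difference of 0.24 ± 0.13 that did not pass (adjusted p = 0.27).

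**Figure D4:**
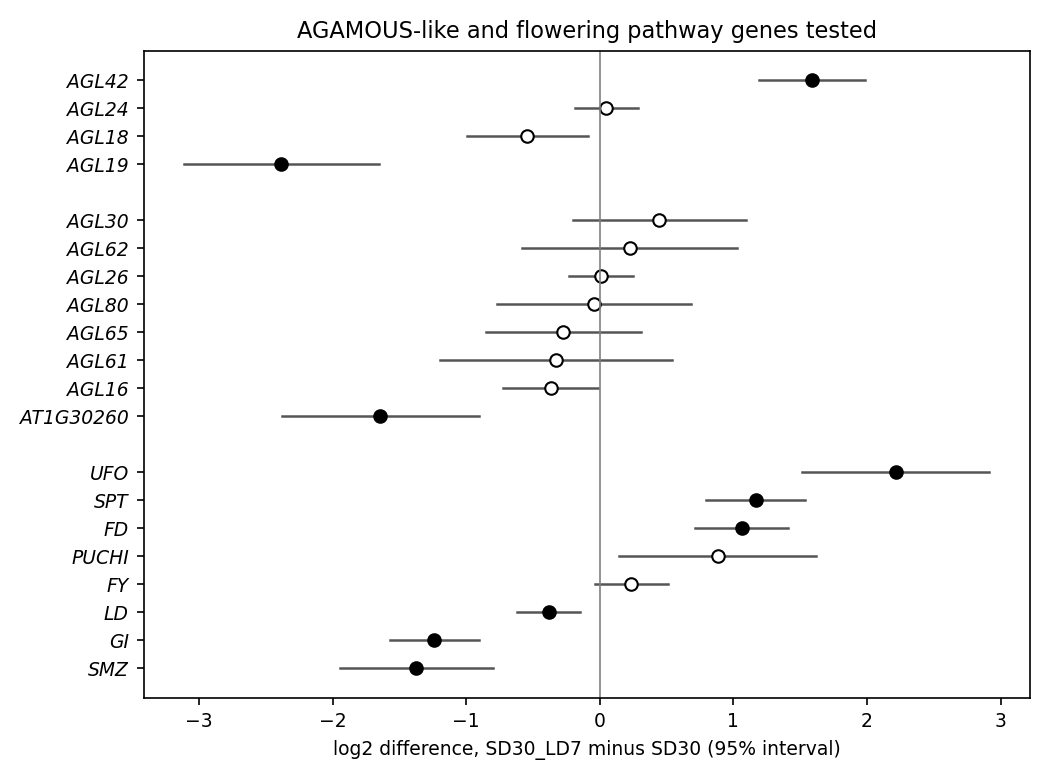
Log2 difference, SD30_LD7 minus SD30, with its 95% interval (lines) for AGL42, AGL24, AGL18 and AGL19 (top), the other tested numbered AGAMOUS-like genes (middle) and the tested flowering pathway genes (bottom), with filled circles where the limma adjusted p was below 0.05. AGL42 and AGL19 are called on opposite sides, and of the other numbered AGAMOUS-like genes only AT1G30260 is called.

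The arrays had median intensities of 207 to 220.5, and the 2 arrays of a group correlated at 0.985 and 0.987 over 15922 probe sets, a correlation across genes and not across replicates. Of the shoot apex markers, 3 of 13 were named, and CLV3, the stem cell signal gene, had 72.9 and 103.5 in SD30 and 72.6 and 87.9 in SD30_LD7. The summed level of these 3 was 1203.6 and 1223.7 in SD30 and 1234.4 and 1388.6 in SD30_LD7. Most of that sum was ULT1, at 1019.7 and 986.4 in SD30 and 1056.3 and 1162.9 in SD30_LD7. Of the 3, limma called 0 (lowest adjusted p = 0.45), and 0 had an unadjusted p below 0.05. Over all 15922 probe sets tested, 15.0 percent were called and 4254 had an unadjusted p below 0.05. With 3 genes, counts of 0 therefore say little. Green leaf transcripts were present on every array, with 2 of 9 markers named and a sum of 5536.9 and 3917 against 3879.7 and 3740.6. Most of that sum was RCA, which did not pass (log2 difference -0.42 ± 0.15, SE), while LHCB4.3 rose (1.72 ± 0.16). The trichome and guard cell markers, 4 of 7 named, summed to 657.7 and 575.8 against 501.1 and 523.5. Of the 3 tested, 1 was called lower, SPCH, where 8.20 percent of all probe sets tested were called lower. The anther and pollen markers, 3 of 5 named, summed to 1183.1 and 1295.7 against 1061.4 and 907.7. Nearly all of that was EMS1, while A9, a tapetum gene, was at or near the floor on every array. The part of these in the differences of the 4 MADS-box genes was not tested. As a measure of RNA quality, actin had a 3' to 5' signal ratio of 6.51 and 5.72 in SD30 and of 8.27 and 4.64 in SD30_LD7. For GAPDH the ratios were 1.777 and 2.045 against 2.646 and 1.574, and for ubiquitin 3.145 and 3.435 against 3.274 and 2.355. The groups overlapped in all of these, which says little with 2 arrays a group. In actin and GAPDH the 2 shifted arrays had the highest and the lowest ratio.

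Across the processing settings tried, AGL42 stayed between 1.38 and 1.79 and was called in 15 of 16. AGL19 was called in 13 of the 15 in which it was tested. AGL24 and AGL18 were called in 0 of 16 and 0 of 15, and with the replicate number as a block the adjusted p of AGL18 was 0.057. In limma as reported, the unadjusted p was 0.67 for AGL24 and 0.023 for AGL18.

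**Figure D5:**
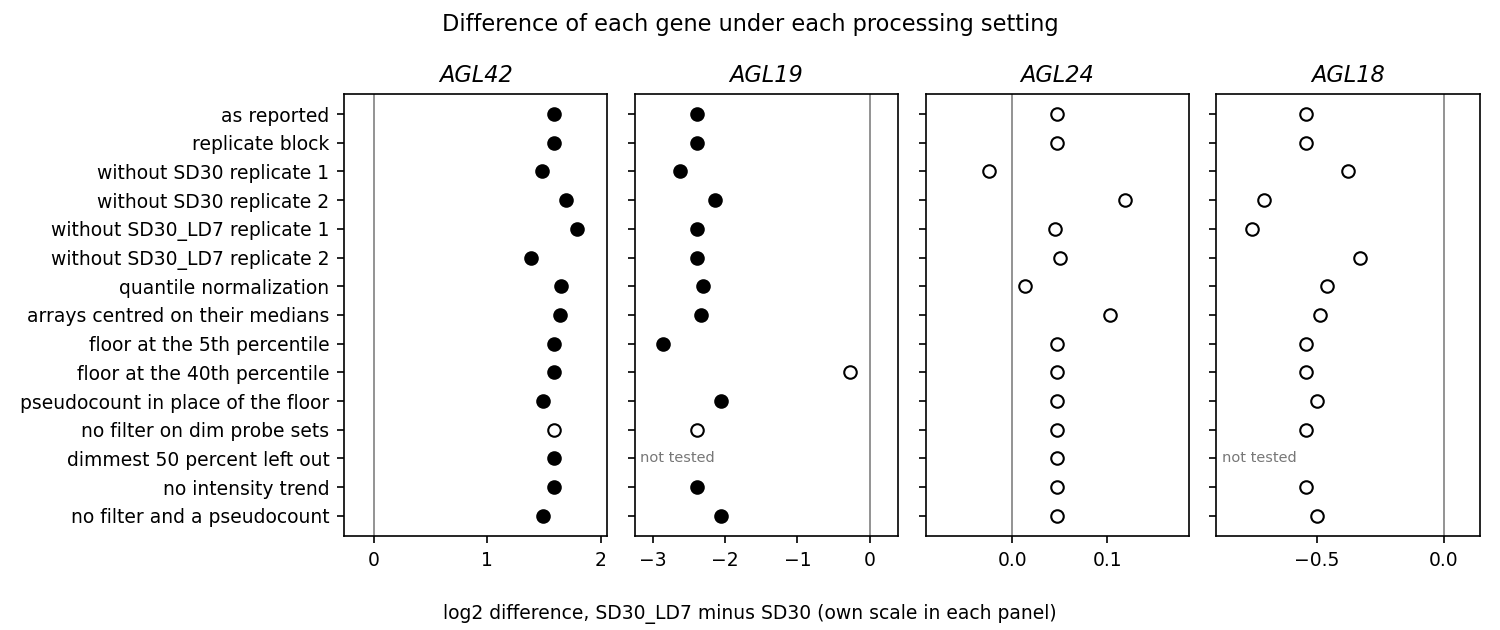
Log2 difference, SD30_LD7 minus SD30, of each of the 4 genes (own scale in each panel) under each processing setting at a threshold of 0.05, with filled circles where the limma adjusted p was below 0.05. AGL42 varies least relative to its size, AGL19 shrinks to -0.27 when the floor is raised to the 40th percentile, and AGL24 and AGL18 have open circles throughout.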

How the data were processed

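The deposited values are linear intensities of 22746 probe sets, beside 64 controls, on each array. Trimmed means without the top and bottom 2 percent were 500.033 to 500.036, which shows a common scaling by the authors. Neither the software nor detection calls are given in the sources used here. By a platform table, 13513 probe sets have 1 gene, 503 have several and 8730 are unnamed here. Symbols were updated through the TAIR10.1 gene table.

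Intensities below 23.5, the 20th percentile, were set to that floor, log2 values were taken, and the dimmest 30 percent by mean were left out, leaving 15922. The test was that of limma 3.58.1, run in R 4.3.3 (eBayes with an intensity trend, two-sided, 2 residual and 9.90 prior degrees of freedom), with Benjamini-Hochberg adjustment over all probe sets tested and a threshold of 0.05. Every adjusted p-value comes from this model. An array was left out after the floor and filter were set. Figures used matplotlib 3.10.9 in Python 3.11.15.

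The genes were fixed by probe set, the comparison lists by locus. Named were all list members called, other MADS-box members, 6 flowering genes in any case, and the 3 nearest profiles of each gene. Members and lists were chosen with earlier results of these data known. The number of arrays limits the precision.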

Additional observations from a re-analysis of the deposited data

Results flagged for a closer look

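Of the probe sets of numbered AGAMOUS-like genes left out of the test as too dim, 2 were above the floor on both shifted arrays and below it on both short-day arrays. These values entered no comparison in the fit as reported. The same pattern was found for 126 of all 6824 probe sets left out, or 1.85 percent, and both genes lay close to the floor of 23.5. AGL71, of the SOC1 clade, had a mean of 31.4 in SD30_LD7 against 3.75 in SD30 (scaled intensity, n = 2 each). AGL79, of the AP1 clade, had a mean of 26.75 against 7.2 by 1 of its probe sets, while its other probe set was at the floor on all 4 arrays. With no filter and a pseudocount of 16, a setting chosen after seeing the data, limma called AGL71 higher (log2 difference 1.27, adjusted p = 0.045). With no filter and the floor, limma did not call it (0.42, adjusted p = 0.16).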

How the results depend on the processing

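The alternative with no filter and a pseudocount was chosen after seeing the data. Relative to 2388 probe sets called, leaving out 1 array gave 1058 to 1494, no filter on dim probe sets 152, no intensity trend 1532 and a threshold of 0.01 gave 1297. Of the MADS-box genes in the clade lists, 2 were called, 1 after raising the floor to the 40th percentile, 1 with the dimmest 50 percent left out, when AGL19 and AGL18 were not tested, and 0 with no filter and the floor kept. Over all probe sets these settings called 2388 of 15922, 1750 of 14420, 1660 of 11373 and 152 of 22746, in that order. With no filter and a pseudocount 3 were called, AGL71 among them, where 1600 of 22746 probe sets were called. Of the flowering pathway genes 6 were called, and 0 with no filter and the floor kept. The counts for both lists thus cannot be read apart from the totals of each setting. In the limma fit with no filter and the floor kept, 4 of the MADS-box genes and 6 of the flowering pathway genes had an unadjusted p below 0.05. The share of all probe sets below it in that fit is not given here, so these counts have no background. In the limma fit as reported, 4254 of the 15922 probe sets tested were below it. That is another fit, with the filter, and gives no background for these counts either. With no filter AGL42 had 1.59 and AGL19 -2.38, unchanged in size, while limma's prior degrees of freedom went from 9.90 to 0.716. AGL19 had -0.27 with the floor at the 40th percentile, which lies near its short-day values. AGL24 had -0.024 without SD30 replicate 1. Leaving out 1 array, AGL42 had 1.38 to 1.79, AGL19 -2.63 to -2.14, AGL24 -0.024 to 0.12 and AGL18 -0.75 to -0.33. Median centring of arrays gave 1329 higher and 1066 lower calls, against 1083 and 1305. With the replicate block 2741 probe sets were called and AGL18 had -0.54 (adjusted p = 0.057). The labels give no factor that pairs the samples, so the replicate number was a block only in this alternative. Same-numbered arrays deviated together with r = 0.047 over the probe sets tested. A value over all of them cannot exclude a pairing that affects some.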

Other observations

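AGL26 had 2 probe sets that disagreed. By intensity, the brighter one had 1712.3 and 1624.9 in SD30 and 1796 and 1568.4 in SD30_LD7, a difference of 0.01 ± 0.11 on the log2 scale (SE, n = 2 per group), while the other was at the floor on all 4 arrays. AGL59 and AGL66 were left out of the test as too dim, though above the floor on all 4 arrays. AGL66, which acts in pollen, had 38 and 49.5 in SD30 and 27.8 and 25 in SD30_LD7. AGL59 had 38 and 45.5 against 25.3 and 30.3.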
